A study of Mus musculus with 13 samples.

Results

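The genes described here are 9 that resting, or homeostatic, microglia display at or release from their surface: P2ry12, P2ry13, Gpr34, Cx3cr1, Siglech, Selplg, Tmem119, Olfml3 and Slc2a5. They were found by gene name in a table of 36287 genes, and all 9 were among the 22065 genes that passed the filter on low counts. The study sequenced poly(A)-selected RNA from whole hippocampus of 5xFAD mice in 13 libraries. Saline was given to 4 mice (numbered 18, 19, 32 and 38), Aducanumab, a monoclonal antibody that binds amyloid aggregates, to 4 (24, 50, 56 and 58), and ACLP-NT, known from the labels by this code name, to 5 (17, 27, 49, 53 and 55). Every group carries the 5xFAD transgenes, human genes with mutations of familial Alzheimer's disease that are driven by the neuronal Thy1 promoter, and no library without them was analysed here. The sources used here give no age, dose or duration of treatment. The comparisons ask how each treatment's hippocampal RNA differed from that of saline mice and how the treatments differed from each other.

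Microglia are the resident macrophages of the brain. At rest they survey the tissue with motile processes and sense nucleotides, lipids and chemokines that neurons release, largely through the receptors in this group. In mouse models of amyloid deposition, microglia gathered at plaques are known to lower these genes while raising a disease-associated set that includes Trem2, Cst7 and Clec7a, and TREM2 signalling is required for the full switch. Most of the 9 genes serve as markers that separate microglia from blood-derived macrophages.

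The libraries held 53642019 to 69734713 counts each. Single counts of the 9 genes ran from 399 to 7969, for which counting error alone is 1.12% to 5.01%. Defining markers of microglia (Csf1r, Aif1, Itgam) and of hippocampal neurons (Prox1, Spink8) were above 0 in every library, so the labelled tissue and its microglia were represented. Choroid plexus genes, led by the transthyretin gene Ttr, ran from 52.9 to 5261 CPM (counts scaled to the library total) as a sum in saline libraries, from 89.8 to 5366 with Aducanumab and from 90.7 to 5231 with ACLP-NT, so they differed widely within every group. A set of 8 neocortical genes summed to between 144 and 242 CPM in saline, between 111 and 150 with Aducanumab, and between 130 and 185 with ACLP-NT. Of 12 hippocampal neuron genes, 12 were higher than saline in ACLP-NT (median log2 fold change 0.21) and 10 in Aducanumab (median 0.10). The part of such regional differences in the levels of the 9 genes was not tested.

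Of the 9 genes, 6 had an entry in the RefSeq promoter table (GRCm38.p6), and the 250 bases before the transcription start are printed for 4 of them, because these hold a match to a motif of a factor family known for microglial identity. Sequences run 5′ to 3′ on the gene's own strand, and capitals mark the motif matches. P2ry13 and Cx3cr1 lie on the minus strand (chr3:59210883-59211132 and chr9:120068297-120068546), and Siglech and Slc2a5 on the plus strand (chr7:55767934-55768183 and chr4:150119094-150119343).
P2ry13: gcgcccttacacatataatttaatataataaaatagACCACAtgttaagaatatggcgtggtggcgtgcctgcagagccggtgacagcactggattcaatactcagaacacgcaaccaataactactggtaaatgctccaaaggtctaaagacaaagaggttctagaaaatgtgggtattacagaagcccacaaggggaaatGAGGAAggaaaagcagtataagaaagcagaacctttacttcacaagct
Cx3cr1: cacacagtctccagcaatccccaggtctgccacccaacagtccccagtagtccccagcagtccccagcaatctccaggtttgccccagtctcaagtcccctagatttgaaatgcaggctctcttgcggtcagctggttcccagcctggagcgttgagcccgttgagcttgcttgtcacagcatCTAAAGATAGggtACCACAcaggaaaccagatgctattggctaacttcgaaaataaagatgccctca
Siglech: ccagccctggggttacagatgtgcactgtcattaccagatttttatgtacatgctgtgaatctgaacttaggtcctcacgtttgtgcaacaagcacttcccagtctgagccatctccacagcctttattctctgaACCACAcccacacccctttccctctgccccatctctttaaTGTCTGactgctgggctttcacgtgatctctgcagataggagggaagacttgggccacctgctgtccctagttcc
Slc2a5: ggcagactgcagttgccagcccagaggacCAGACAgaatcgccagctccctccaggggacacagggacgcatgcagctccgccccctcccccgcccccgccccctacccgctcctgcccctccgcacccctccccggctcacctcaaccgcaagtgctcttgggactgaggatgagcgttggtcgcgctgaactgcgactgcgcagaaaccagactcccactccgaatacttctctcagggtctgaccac
Motifs were searched on both strands. The RUNX letters TGTGGT (which read ACCACA on the other strand) occurred in 3 of the 6 promoters, at positions -214 in P2ry13, -54 in Cx3cr1 and -115 in Siglech counted from the start, against 14.05% of 32851 promoters. The SMAD letters CAGACA, which read TGTCTG on the other strand, occurred in 2, at -221 in Slc2a5 and -75 in Siglech, against 17.1% of promoters. The core PU.1 letters GAGGAA occurred in 1, at -48 in P2ry13, against 23.3%, and the MEF2 motif in 1, at -67 in Cx3cr1, against 3.20%. The longer PU.1 letters GAGGAAGT (2.44% of promoters), which contain the core, the SMAD palindrome GTCTAGAC (0.167%), the MAF letters TGCTGA (16.1%) and the IRF motif (2.98%) were in none of the 6. For P2ry12, which held no match, the bases after the RefSeq start were not found in its transcripts in the annotation used, so its window is a doubtful promoter. A match says only that these letters stand in this window.

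In the table's own coordinates, for which the sources used here name no build, the 9 genes lie on 6 chromosomes. P2ry12 (ENSMUSG00000036353, 3:59123693-59170252) and P2ry13 (ENSMUSG00000036362, 3:59115313-59118303) stand 5390 bases apart on the minus strand, both within the span of Med12l, which runs on the plus strand. Tmem119 (ENSMUSG00000054675, 5:113931790-113938577) and Selplg (ENSMUSG00000048163, 5:113956597-113968562) are 18020 bases apart on the minus strand. Gpr34 (ENSMUSG00000040229, X:13498328-13507097, plus strand) lies within Cask, a minus-strand gene, and Cx3cr1 (ENSMUSG00000052336, 9:119877749-119898945, minus strand) overlaps Gm33858. Siglech (ENSMUSG00000051504), Olfml3 (ENSMUSG00000027848) and Slc2a5 (ENSMUSG00000028976) overlap no other gene of the table, and lie at 7:55417926-55428581, 3:103629538-103645317 and 4:150203740-150228626. Whether the counting used strand is not given, so reads of a host gene and of the gene within it may not be fully separated. Med12l, which spans the purine receptor pair, differed from saline by a log2 fold change of -0.049 (SE 0.0534) in ACLP-NT and -0.0027 (SE 0.0563) in Aducanumab, and Cask, which spans Gpr34, by 0.026 (SE 0.0718) and -0.0014 (SE 0.0756).

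Per gene length, in the authors' FPKM (fragments scaled to gene length and library total), P2ry12 had the highest mean level over the 13 libraries, 23.0 ± 3.02 (SD, n = 13). Cx3cr1 followed at 19.4 ± 2.83, Gpr34 at 16.1 ± 3.27, Selplg at 14.4 ± 2.11 and Tmem119 at 13.1 ± 1.24 FPKM. A step down led to P2ry13 at 8.22 ± 1.43, Siglech at 8.15 ± 1.41 and Olfml3 at 7.33 ± 1.14 FPKM, and Slc2a5 was lowest at 2.59 ± 0.524 FPKM. P2ry12 exceeded Cx3cr1, and Cx3cr1 exceeded Gpr34, in 13 of 13 libraries, although their ranges over the libraries overlapped. Among neighbours in this order, only Tmem119 and P2ry13, and Olfml3 and Slc2a5, had ranges that did not overlap. P2ry13 and Siglech were not separable, with P2ry13 the higher in 7 of 13 libraries.

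**Figure D1:**
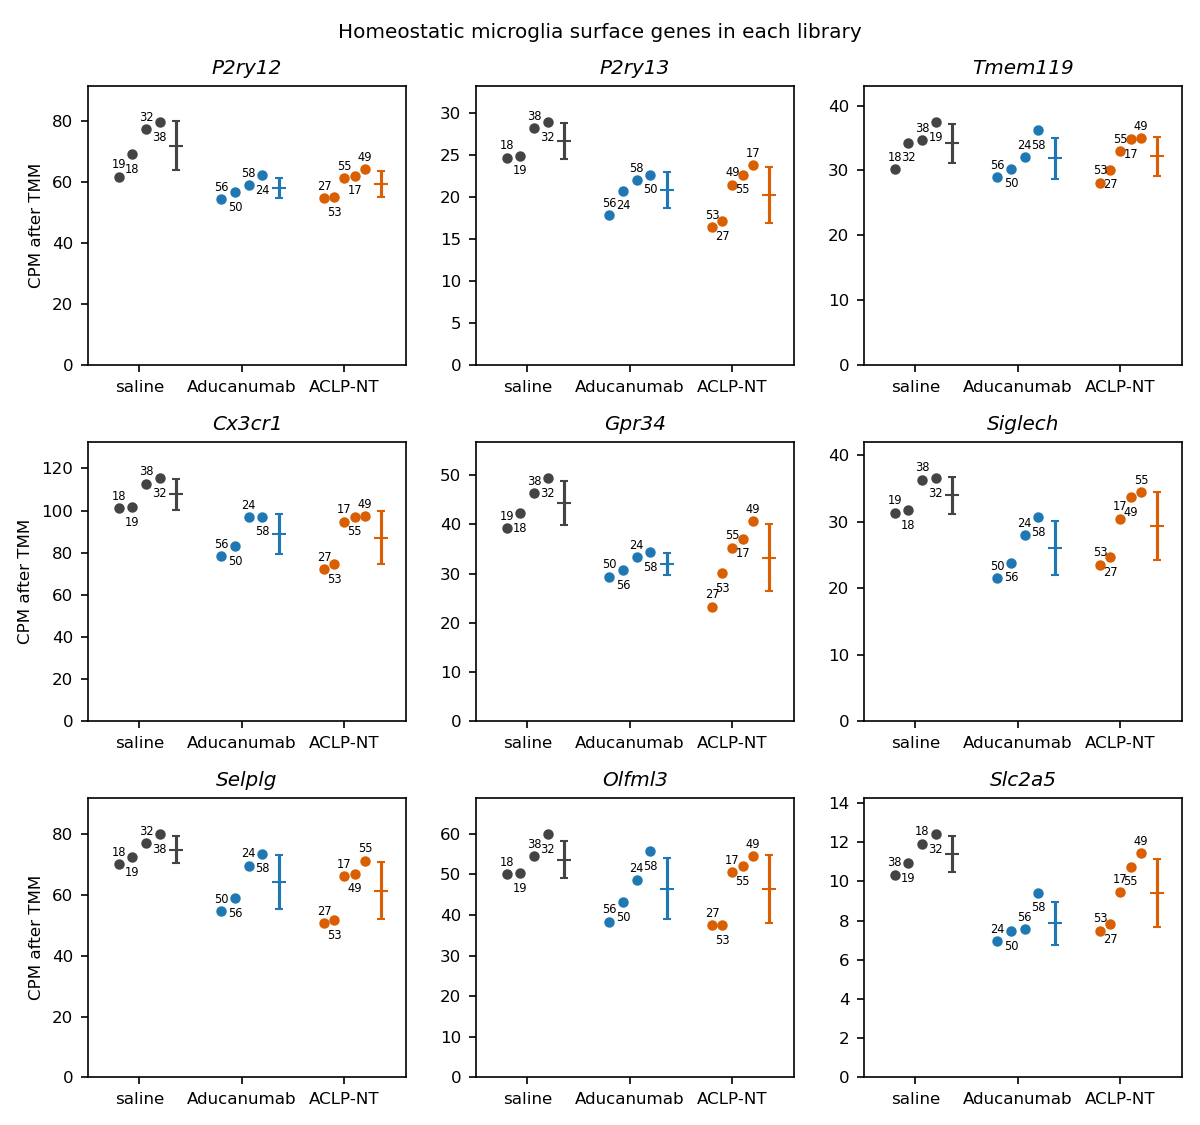
Level of each of the 9 genes in CPM (vertical axis of each panel) by treatment group, with 1 numbered point per library and the group mean ± SD. P2ry13 and Cx3cr1 are lower in every ACLP-NT and every Aducanumab library than in any saline library, while the Tmem119 points of the 3 groups are interleaved.

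In ACLP-NT against saline, all 9 genes had lower mean levels, with a median log2 fold change of -0.28. Over all genes tested the median was -0.0015, and 50.6% lay below 0. None of the 9 passed an adjusted p of 0.05 in edgeR's quasi-likelihood test, and percent called over all genes was 0. At an unadjusted p under 0.05 in that test, 5 of 9 were lower (P2ry12, P2ry13, Cx3cr1, Gpr34 and Selplg), against 3.43% of all genes lower at that level. For P2ry13 and Cx3cr1 every ACLP-NT library lay below every saline library, which held for 1.33% of all genes. In whole tissue, fewer microglia and less of each RNA per microglia cannot be told apart.

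In Aducanumab against saline, all 9 genes again had lower mean levels, with a median log2 fold change of -0.31 against 0.0036 over all genes tested, of which 48.7% lay below 0. None of the 9 passed the adjusted threshold and percent called over all genes was 0. At an unadjusted p under 0.05, 6 of 9 were lower (P2ry12, P2ry13, Cx3cr1, Gpr34, Siglech and Slc2a5), against 2.62% of all genes. The groups did not overlap for 5 of 9 (P2ry13, Cx3cr1, Gpr34, Siglech and Slc2a5), against 1.41% of all genes. Both comparisons use the same 4 saline libraries, so their shared direction is not a repeat of one by the other.

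In ACLP-NT against Aducanumab, 4 of the 9 genes were lower and 5 higher, with a median log2 fold change of 0.014 against -0.0064 over all genes, of which 52.4% lay below 0. None was called (percent called 0), none had an unadjusted p under 0.05 (3.24% of all genes differed in either direction at that level), and for none did the groups fail to overlap (1.34% of all genes in either direction). The differences furthest from 0 were those of Slc2a5, 0.26 (SE 0.135), and Siglech, 0.17 (SE 0.127). DESeq2 and limma on log2 FPKM called none of the 9 in any comparison either. At an unadjusted p under 0.05 each found 6 in both comparisons with saline and 0 between the treatments. Over all 22065 genes, in either direction, DESeq2 found 1420 at that level in ACLP-NT against saline, 1106 in Aducanumab against saline and 757 between the treatments, and limma with a pseudocount of 1 found 1452, 1154 and 846.

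**Figure D2:**
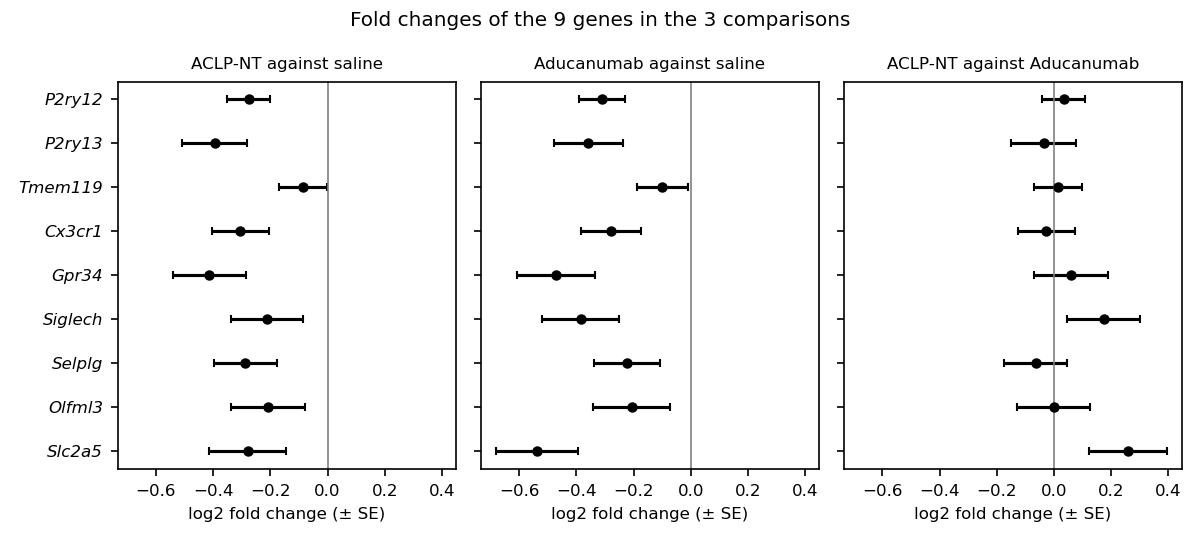
Log2 fold change of each gene (horizontal axis) in the 3 comparisons, with bars of ± 1 SE from the edgeR fit. All 18 values against saline lie below 0, and those of Tmem119 lie nearest to it, while the values of ACLP-NT against Aducanumab lie on both sides of 0.

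The purine receptors come first. P2ry12 encodes an ADP receptor coupled to inhibitory G proteins that steers microglial processes towards released nucleotides. It measured 69.4, 61.9, 77.5 and 79.7 CPM in saline 18, 19, 32 and 38, then 62.3, 56.8, 54.4 and 59.1 CPM in Aducanumab 24, 50, 56 and 58, and 62.2, 54.8, 64.3, 55.1 and 61.4 CPM in ACLP-NT 17, 27, 49, 53 and 55. Saline 19 reached down into the treated range, so neither treated group was clear of saline. Its log2 fold change against saline was -0.28 (SE 0.0750, adjusted p = 0.722) in ACLP-NT and -0.31 (SE 0.0794, adjusted p = 0.898) in Aducanumab. It had the smallest unadjusted p of the 9 in both, 0.00251 and 0.00160, and a biological coefficient of variation of 0.0879, against a median of 0.161 over all genes.

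P2ry13, the gene of another ADP receptor next to P2ry12, measured 24.7, 24.9, 28.8 and 28.2 CPM in saline. It measured 20.8, 22.7, 17.8 and 22.0 CPM in Aducanumab, and 23.8, 17.1, 21.4, 16.4 and 22.6 CPM in ACLP-NT, with libraries in the order given above. Every treated library was below the lowest saline library, and ACLP-NT 27 and 53 and Aducanumab 56 were lowest. The log2 fold change was -0.39 (SE 0.113, adjusted p = 0.722) in ACLP-NT and -0.36 (SE 0.120, adjusted p = 0.9997) in Aducanumab.

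Gpr34, whose product is a G protein-coupled receptor for lysophosphatidylserine, measured 42.3, 39.3, 49.4 and 46.4 CPM in saline and 33.4, 29.4, 30.8 and 34.3 CPM in Aducanumab. In ACLP-NT it measured 37.1, 23.3, 40.6, 30.1 and 35.3 CPM. The Aducanumab libraries formed a tight group below saline, whereas ACLP-NT was spread widely, with ACLP-NT 49 inside the saline range and ACLP-NT 27 the lowest of all 13. The log2 fold change was -0.47 (SE 0.136, adjusted p = 0.938) in Aducanumab and -0.41 (SE 0.128, adjusted p = 0.746) in ACLP-NT.

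Cx3cr1, the receptor through which microglia receive the neuronal chemokine fractalkine, measured 101, 102, 115 and 113 CPM in saline. It measured 96.9, 83.0, 78.2 and 97.1 CPM in Aducanumab and 94.7, 72.2, 97.3, 74.5 and 97.1 CPM in ACLP-NT. In both treated groups some libraries sat just below saline (Aducanumab 24 and 58; ACLP-NT 17, 49 and 55) and the others well below it. The log2 fold change was -0.31 (SE 0.0998, adjusted p = 0.746) in ACLP-NT and -0.28 (SE 0.106, adjusted p = 0.9997) in Aducanumab.

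Siglech encodes a lectin of the sialic acid-binding family that signals through the adaptor encoded by Tyrobp. It measured 31.8, 31.3, 36.5 and 36.3 CPM in saline, 28.0, 21.5, 23.9 and 30.7 CPM in Aducanumab and 30.4, 24.6, 33.7, 23.5 and 34.4 CPM in ACLP-NT. All Aducanumab libraries lay below saline, while ACLP-NT 49 and 55 lay within it. The log2 fold change was -0.38 (SE 0.134, adjusted p = 0.9997) in Aducanumab and -0.21 (SE 0.126, adjusted p = 0.889) in ACLP-NT. Plasmacytoid dendritic cells also use Siglech; of 5 of their markers in the table, 3 passed the filter on low counts, and the 5 together reached 7.69 to 12.2 CPM in saline, 7.80 to 10.9 CPM with Aducanumab and 5.83 to 11.9 CPM with ACLP-NT, with Irf7, which microglia also express, the highest. Of the others, Cox6a2 (1.17 to 2.86 CPM) and Ccr9 (0.299 to 1.17 CPM) were above 0 in every library, and Spib and Klk1 were at 0 in most libraries.

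Selplg, the gene of the selectin ligand PSGL-1, ranged from 70.2 to 79.9 CPM in saline, from 54.7 to 73.5 with Aducanumab and from 50.8 to 71.2 with ACLP-NT. Most treated libraries lay below saline, but Aducanumab 58 and ACLP-NT 55 lay within its range. The log2 fold change was -0.29 (SE 0.109, adjusted p = 0.776) in ACLP-NT and -0.22 (SE 0.115, adjusted p = 0.9997) in Aducanumab. Its neighbour Tmem119, a transmembrane protein used as a marker of microglia, differed least. Tmem119 measured 30.2, 37.4, 34.3 and 34.7 CPM in saline, 32.1, 30.3, 28.9 and 36.2 CPM in Aducanumab and 34.8, 30.1, 34.9, 28.1 and 33.0 CPM in ACLP-NT. The 3 groups overlapped throughout, with saline 18 below most treated libraries. The log2 fold change was -0.085 (SE 0.0845, adjusted p = 0.948) in ACLP-NT and -0.0998 (SE 0.0892, adjusted p = 0.9997) in Aducanumab. With 1 library left out the former ranged from -0.14 (without saline 18) to -0.038 (without saline 19), with -0.041 without ACLP-NT 53. The latter ranged from -0.17 (without Aducanumab 58) to -0.055 (without saline 19), with -0.15 without saline 18 and -0.056 without Aducanumab 56.

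Olfml3, which encodes a secreted glycoprotein of the extracellular matrix, ranged from 50.0 to 59.8 CPM in saline, from 38.4 to 55.8 with Aducanumab and from 37.4 to 54.5 with ACLP-NT, and the groups overlapped. Its log2 fold change was -0.21 in both treatments (SE 0.129 in ACLP-NT and 0.136 in Aducanumab). Leaving out 1 library gave -0.27 to -0.14 in ACLP-NT (nearest to 0 without ACLP-NT 27) and -0.31 to -0.13 in Aducanumab (nearest to 0 without Aducanumab 56). Slc2a5, the gene of the fructose transporter GLUT5, measured 11.9, 10.9, 12.4 and 10.3 CPM in saline. It measured 6.96, 7.45, 7.57 and 9.43 CPM in Aducanumab and 9.47, 7.81, 11.4, 7.49 and 10.7 CPM in ACLP-NT. Aducanumab lay wholly below saline, and ACLP-NT ran from the Aducanumab level to within the saline range. Its log2 fold change in Aducanumab, -0.54 (SE 0.142, adjusted p = 0.905), was the furthest from 0 of the 9 genes, and in ACLP-NT it was -0.28 (SE 0.134, adjusted p = 0.839).

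The 9 genes tended to be low in the same libraries. As the mean over the 9 genes of each gene's log2 CPM minus its mean over the libraries, saline 32 stood at 0.31 and saline 38 at 0.26, and saline 18 and 19 at 0.13 each. Aducanumab 56 stood at -0.25, Aducanumab 50 at -0.20, ACLP-NT 27 at -0.32 and ACLP-NT 53 at -0.30. ACLP-NT 17, 49 and 55, by contrast, stood at 0.048, 0.12 and 0.081, and Aducanumab 24 and 58 at -0.061 and 0.058, between saline and the low libraries. ACLP-NT 53 and Aducanumab 56 were among the lowest 4 libraries for 9 of 9 genes. The amount of choroid plexus RNA did not order them alike, at 5231 CPM in ACLP-NT 53, 1837 in ACLP-NT 27, 4790 in Aducanumab 56 and 89.8 in Aducanumab 50. Its part in the levels was not tested. Without the library highest in these genes in each group (saline 38, Aducanumab 58 and ACLP-NT 53), all 9 genes remained lower than saline in both treatments, and the median was -0.19 in ACLP-NT. Thalamus and midbrain genes summed to 258 CPM in Aducanumab 50, against 97.0, 94.5 and 150 CPM in Aducanumab 24, 56 and 58. Their part in the levels was not tested either.

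**Figure D3:**
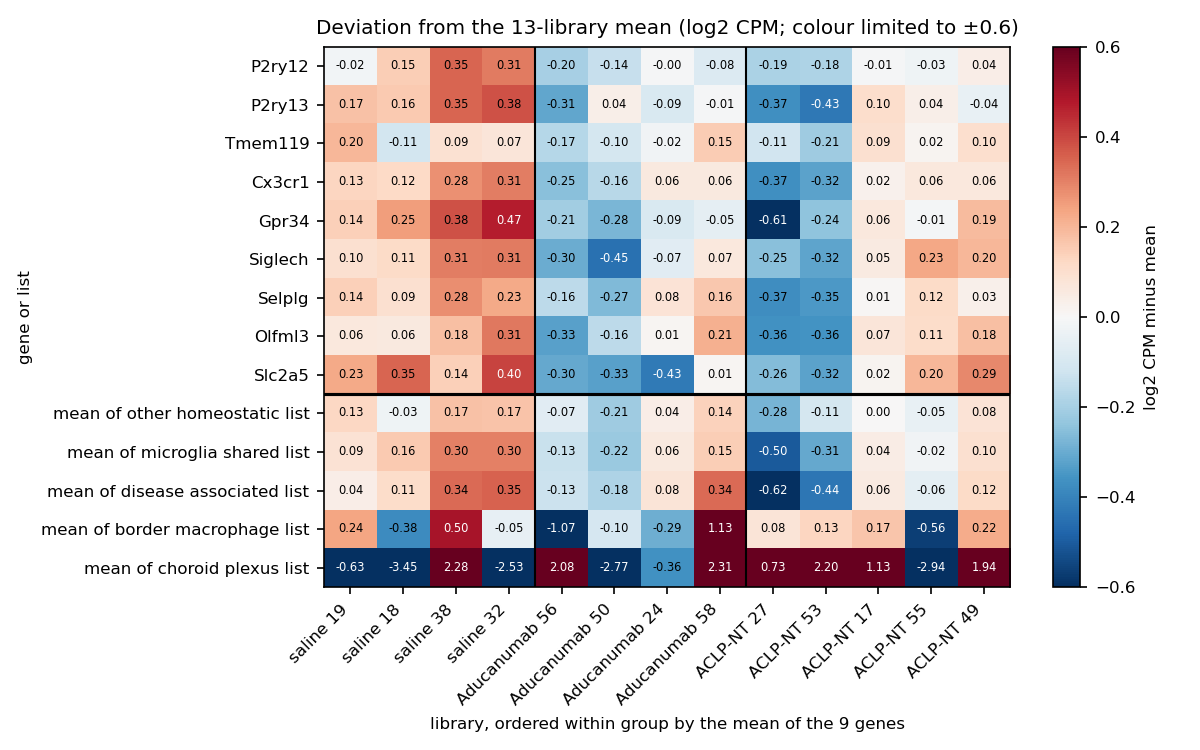
Deviation of log2 CPM from the mean over the 13 libraries (number and colour, colour limited to ± 0.6), with libraries in columns by treatment and the 9 genes and the means of 5 gene lists in rows. ACLP-NT 27 and 53 and Aducanumab 50 and 56 are low across most genes, and saline 32 and 38 are high across most.

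After each group's mean was removed, the log2 CPM of the 36 pairs among the 9 genes had a median Pearson r of 0.75 over the 13 libraries, which all share the same RNA and scaling. The closest pair was Siglech and Selplg, r = 0.98, followed by Cx3cr1 and Olfml3, r = 0.97. The least alike were P2ry12 and Tmem119, r = 0.37. Among 14244 other genes, those whose levels followed the mean of the 9 most closely by the same measure were Cd68 (r = 0.99), Cst7 (0.98), Clec7a (0.98), Vsir (0.98), Lyz2 (0.97), AU020206 (0.97), Ptprc (0.97), Csf1r (0.97), Slc11a1 (0.96) and Hexa (0.96). Cd68, Cst7 and Clec7a belong to the disease-associated list. The median r was 0.86 over that list, 0.87 over genes shared by microglia in every state, 0.58 over other homeostatic genes and -0.021 over choroid plexus genes.

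The other microglial lists lay lower as well, and no gene of them passed the adjusted threshold in edgeR. Of 22 other homeostatic genes, 19 were lower in ACLP-NT (median log2 fold change -0.23) and 17 in Aducanumab (median -0.16), with 7 and 4 lower at an unadjusted p under 0.05, a level reached in that direction by 3.43% and 2.62% of all genes. Sall1, a transcription factor that maintains microglial identity, was at -0.23 (SE 0.0648) and -0.29 (SE 0.0686), Csf1r, the receptor microglia need to survive, at -0.29 (SE 0.0889) and -0.23 (SE 0.0940), the transporter gene Slco2b1 at -0.27 (SE 0.0895) in ACLP-NT, and Fscn1, an actin-bundling protein gene, at -0.18 (SE 0.0641) in Aducanumab. Of 18 genes that microglia use in every state, 18 were lower in ACLP-NT (median -0.37) and 17 in Aducanumab (median -0.23), with 10 and 5 lower at that level, among them the transcription factor gene Ikzf1 at -0.41 (SE 0.120) and -0.56 (SE 0.128) and the tetraspanin gene Cd53 at -0.33 (SE 0.105) and -0.33 (SE 0.111). Ly86, an accessory protein of innate receptors, was at -0.48 (SE 0.156) in ACLP-NT and the actin regulator Coro1a at -0.15 (SE 0.0563) in Aducanumab.

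Of 23 disease-associated genes, 22 were lower in ACLP-NT (median -0.37) and 20 in Aducanumab (median -0.24), and 12 and 3 of these had an unadjusted p under 0.05, against the same 3.43% and 2.62% of all genes. The disease-associated and the homeostatic genes thus stood on the same side of saline. Trem2, the lipid-sensing receptor of that state, was at -0.51 (SE 0.183) and -0.33 (SE 0.194), and Axl, a receptor tyrosine kinase gene, at -0.31 (SE 0.0844) and -0.24 (SE 0.0893). Cybb, of the phagocyte oxidase, was at -0.76 (SE 0.227) in ACLP-NT. The protease gene Ctsb was at -0.23 (SE 0.0723) and -0.17 (SE 0.0764). Spp1, osteopontin, stood the other way in Aducanumab at 0.88 (SE 0.329), with 3 of 4 libraries above the saline mean. It ran from 14.2 to 48.0 CPM there and from 13.4 to 16.2 CPM in saline, so the groups overlapped.

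**Figure D4:**
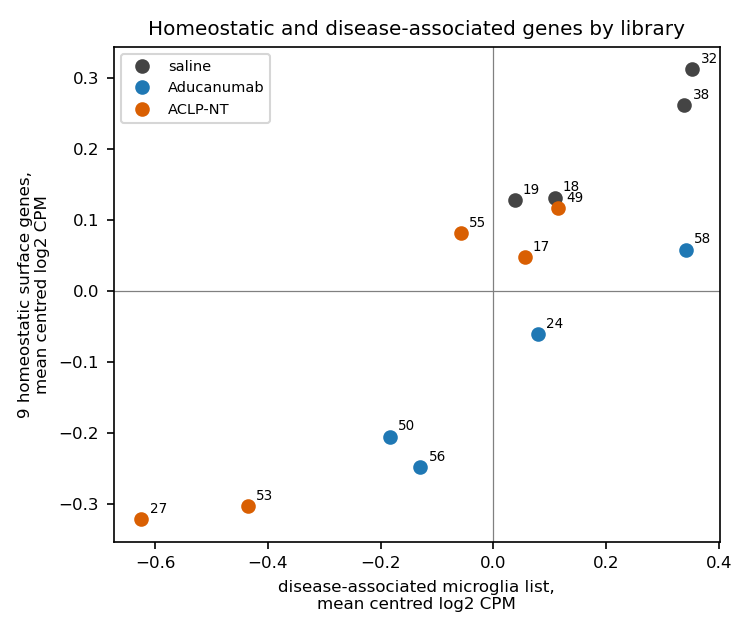
Each library's mean centred log2 CPM of the 9 homeostatic genes set against that of the 23 disease-associated genes, coloured by group. ACLP-NT 27 and 53 are low in both sets and saline 32 and 38 high in both. Aducanumab 24 and 58 and ACLP-NT 17 and 49 lie within the saline range in the disease-associated set and below it in the homeostatic one. Of these, Aducanumab 58 stands at 0.34 and 0.058, and ACLP-NT 49 at 0.12 and 0.12.

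Ligands and partners of the 9 genes showed no common direction. Of 23 tested, 15 were lower and 8 higher in ACLP-NT (median -0.031), and 10 were lower and 13 higher in Aducanumab (median 0.0082). Cx3cl1, the neuronal ligand of Cx3cr1, was at 0.018 (SE 0.0682) in ACLP-NT and -0.0995 (SE 0.0719) in Aducanumab. Tyrobp, the Siglech adaptor, was at -0.39 (SE 0.199) and -0.25 (SE 0.211), Kcnk13, the potassium channel that microglia need for surveillance, at -0.18 (SE 0.175) and -0.13 (SE 0.185), and Abhd12, which breaks down the lipid ligand of Gpr34, at -0.021 (SE 0.0461) and -0.055 (SE 0.0486). Others named by the rule were the G protein subunit gene Gnai2, at -0.17 (SE 0.0526), and Entpd1, which degrades extracellular ATP, at -0.26 (SE 0.135) in ACLP-NT. In Aducanumab, Entpd1 was at -0.24 (SE 0.143), the glucose transporter gene Slc2a1 at 0.25 (SE 0.0907) and Gnai3 at 0.096 (SE 0.0654). Of 20 upstream regulators, 14 were lower in ACLP-NT (median -0.17) and 13 in Aducanumab (median -0.16), with Tgfbr2, a receptor for TGF-beta, at -0.41 (SE 0.128) in ACLP-NT, and Mef2c at -0.53 (SE 0.170) and Smad3 at -0.15 (SE 0.0505) in Aducanumab. Mef2c is also a cortical neuron gene, and the 8 neocortical genes were lower in Aducanumab with a median of -0.61. In ACLP-NT all 8 neocortical genes were lower as well, with a median of -0.29. Their part in the Mef2c value was not tested.

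Markers of other myeloid and lymphoid cells were low. The 11 border macrophage genes, such as Mrc1 and Cd163, reached a sum of 31.0 to 47.3 CPM in saline, 28.7 to 64.7 CPM with Aducanumab and 33.2 to 43.7 CPM with ACLP-NT, with 6 lower and 5 higher in ACLP-NT and 5 lower and 6 higher in Aducanumab. Monocyte and neutrophil genes summed to 0.646 to 5.52 CPM over all libraries. The highest sum was that of Aducanumab 58, and the next was 1.71 CPM in saline 19. Camp was at 0 in 12 of 13 libraries, while Ly6c2 and Ccr2 were above 0 in every library. Lymphocyte genes summed to 1.07 to 2.74 CPM, with Gzma at 0 in 12 of 13 and Cd4 and Cd8a above 0 in every library.

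Set against the other microglial lists, the members' differences from saline depended on the reference list. The lists were measured in whole tissue, and how far each reflects microglia alone was not tested. Single genes of the other homeostatic list followed the members with r from -0.34 to 0.98. Of those 22 genes, 3 were higher than saline in ACLP-NT and 5 in Aducanumab. In each library the mean log2 CPM of the 18 genes shared by microglia of every state was subtracted from each member's log2 CPM. In ACLP-NT the relative level differed from saline by 0.26 (SE 0.112) for Tmem119, 0.13 (SE 0.0574) for Siglech and 0.13 (SE 0.0475) for Olfml3. P2ry12 was at 0.079 (SE 0.0767), Slc2a5 at 0.055 (SE 0.0974), Selplg at 0.051 (SE 0.0533) and Cx3cr1 at 0.034 (SE 0.0373). P2ry13 stood at -0.056 (SE 0.0576) and Gpr34 at -0.084 (SE 0.0425). With the 22 other homeostatic genes as reference instead, Siglech was at -0.044 (SE 0.0891), Olfml3 at -0.043 (SE 0.0864) and Tmem119 at 0.095 (SE 0.0602). P2ry12 was at -0.091 (SE 0.0812), Slc2a5 at -0.11 (SE 0.119), Selplg at -0.12 (SE 0.0693) and Cx3cr1 at -0.13 (SE 0.0631). The signs of P2ry12, Slc2a5, Selplg, Cx3cr1, Siglech and Olfml3 thus turned. P2ry13 stood at -0.23 (SE 0.0851) and Gpr34 at -0.25 (SE 0.103). With the 23 disease-associated genes, P2ry13 was at -0.0075 (SE 0.0725) and Gpr34 at -0.035 (SE 0.0397). The other members ran from 0.083 (SE 0.0663) for Cx3cr1 to 0.31 (SE 0.140) for Tmem119. In Aducanumab, with the first reference, the members stood on both sides of 0. Tmem119 was at 0.15 (SE 0.0975), Olfml3 at 0.033 (SE 0.0690) and Selplg at 0.018 (SE 0.0337). Cx3cr1 was at -0.033 (SE 0.0441), P2ry12 at -0.055 (SE 0.0709) and P2ry13 at -0.11 (SE 0.107). Gpr34 was at -0.22 (SE 0.0414), Siglech at -0.14 (SE 0.0326) and Slc2a5 at -0.29 (SE 0.117). Against the other homeostatic genes, the Aducanumab differences ran from -0.40 (SE 0.119) for Slc2a5 to 0.037 (SE 0.0619) for Tmem119. Against the disease-associated genes they ran from -0.36 (SE 0.128) for Slc2a5 to 0.082 (SE 0.118) for Tmem119. Tmem119 was the only member above 0 with these references. Between the treatments, with the first reference, ACLP-NT exceeded Aducanumab by 0.35 (SE 0.105) for Slc2a5, by 0.27 (SE 0.0635) for Siglech and by 0.14 (SE 0.0484) for Gpr34. Against the other homeostatic genes these were 0.29 (SE 0.115), 0.21 (SE 0.0890) and 0.079 (SE 0.0855). P2ry13 at -0.0034 (SE 0.133) and Selplg at -0.025 (SE 0.0722) then lay below 0. Against the disease-associated genes the same 3 were 0.46 (SE 0.107), 0.39 (SE 0.0762) and 0.25 (SE 0.0803). These relative levels are descriptions and were not tested, and each reference list itself stood lower than saline in both treatments.

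**Figure D5:**
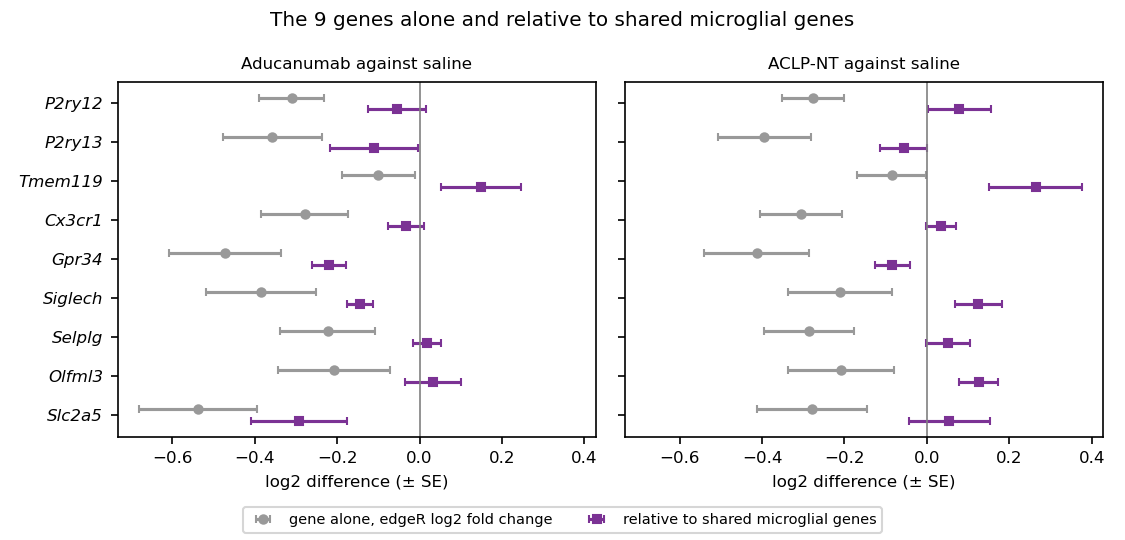
Difference of each treated group from saline in log2 units with ± 1 SE (horizontal axis), for each gene alone (grey) and relative to the mean of 18 genes that microglia use in every state (purple). In Aducanumab the relative values of Gpr34, Siglech and Slc2a5 lie furthest below 0, and those of Tmem119, Olfml3 and Selplg lie above it. In ACLP-NT those of Tmem119, Siglech and Olfml3 lie furthest above 0. With other homeostatic genes as the reference, only Tmem119 (0.095) lies above 0 in ACLP-NT, with Siglech at -0.044 and Olfml3 at -0.043.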

How the data were processed

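Bulk mRNA of 13 hippocampi was measured. Per the file headers, the authors deposited raw counts and FPKM per gene for each library, the latter scaled by gene length and library total. The submitters' processing notes list HISAT2 2.0.4, StringTie 1.3.4d, cutadapt 1.9 and edgeR, with no counter, strand setting or build. Counts were filtered with filterByExpr, scaled by TMM and tested with edgeR 4.0.16 (R 4.3.3) in 1 quasi-likelihood fit of the 3 groups, two-sided, Benjamini-Hochberg adjusted over 22065 genes at 0.05; CPM are TMM-scaled. SE is the absolute log2 fold change over the square root of F. The method was tested on simulated data. Alternatives were DESeq2 1.42.0, limma 3.58.1 on log2(FPKM + 1) and log2(FPKM + 0.1), other filters and scalings, a robust fit, pairwise fits and leaving out each library. The members and lists were chosen with earlier results of these data known. Named genes are all members, fixed partner genes, the 3 smallest unadjusted p of each microglial list and comparison with saline, the 10 genes most like the members (mean CPM of at least 1) and overlapping or neighbouring genes, some left out here. Log2 CPM for likeness used a prior count of 2. The labels number mice but do not describe cultures or litters, so p-values measure only the spread between these samples. Of 26714 symbols shared with RefSeq GRCm38.p6, 68 had equal start and end. This count does not tell which build the deposited positions use, so they were not combined with the RefSeq promoter positions.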

Additional observations from a re-analysis of the deposited data

How the results depend on the processing

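Counting error of a member in 1 library was at most 5.01%. All 9 genes lay below saline in both treatments under every alternative, and none was called. Genes called among all tested moved from 0 to 9 (ACLP-NT against saline), 16 (Aducanumab against saline) and 3 (ACLP-NT against Aducanumab) with DESeq2, where the smallest adjusted p of a member was 0.170 and 0.135 against saline. With 1 library left out, genes called ranged from 0 to 1 in each comparison (1 without saline 32 in both comparisons with saline, and without ACLP-NT 49 between treatments), and the median log2 fold change of the 9 genes from -0.33 to -0.23, from -0.38 to -0.26 and from -0.029 to 0.082. The cause was not tested. Signs of single genes turned in ACLP-NT against Aducanumab alone. There Olfml3 was at 0.0028 without the filter and 0.0016 with only the groups compared. With 1 library left out, Cx3cr1 ranged from -0.083 to 0.038, Olfml3 from -0.083 to 0.0998, P2ry13 from -0.10 to 0.033, Tmem119 from -0.029 to 0.082, Selplg from -0.13 to 0.0087 and Gpr34 from -0.019 to 0.17. The other settings named here were chosen after seeing the data. Without the 3 libraries highest in choroid plexus genes, P2ry13 was at 0.060, Cx3cr1 at 0.072, Selplg at 0.065 and Olfml3 at 0.17, and the groups failed to overlap for 2 of 9 genes in ACLP-NT and 7 of 9 in Aducanumab, lower than saline, against 3.29% and 5.32% of all genes. The library highest in thalamus and midbrain genes in each group was saline 18, Aducanumab 50 and ACLP-NT 49. Without these 3, the groups failed to overlap for 4 of 9 and 5 of 9 genes, against 4.11% and 4.86% of all genes. In that setting 1 gene was called in Aducanumab against saline and 1 in ACLP-NT against Aducanumab. In the latter comparison the median was -0.040, P2ry12 was at -0.0065, Tmem119 at -0.040 and Gpr34 at -0.061. No paired analysis was possible because the groups share no replicate number.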
